A study of Homo sapiens with 48 samples.

Results

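The genes described here encode the deubiquitinase A20 (TNFAIP3), its binding partners TNIP1, TNIP2 and TNIP3, the deubiquitinase CYLD, and TNFAIP2 and TNFAIP8, which were named for their induction by TNFα. They are 7 of the 20033 protein-coding genes of GENCODE 44 on chromosomes 1 to 22, X and Y. RELA, RELB, FOSL1 and H3K27ac peaks were taken wherever they touched the gene body or the 100 kb on either side of it, in all 16 peak lists. In these windows the RELA list of 30 min of TNFα held 28 of its 11266 regions and the RELB list of 6 h of TWEAK held 8 of its 4052 regions. When the 10 RELA and RELB lists were merged, the windows contained 29 separate sites.

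In the canonical pathway, ubiquitin signals at the receptor help to activate the kinases, and degradation of the inhibitory IκB proteins frees NF-κB dimers to enter the nucleus. In the noncanonical pathway, processing of p100 to p52 releases dimers of RELB and p52. The dimers bind DNA at a short consensus called the κB site. RELA carries the canonical response to TNFα, and RELB the noncanonical response to TWEAK. A20 edits ubiquitin chains on signaling proteins and is a classical feedback inhibitor of NF-κB, because its gene is itself an NF-κB target. The TNIP proteins, also called ABINs, bind A20 and ubiquitin and bring A20 to its substrates, and CYLD removes ubiquitin chains from several of the same signaling proteins. TNFAIP2 and TNFAIP8 are TNFα-inducible genes with no part in the ubiquitin step, TNFAIP2 in membrane remodeling and TNFAIP8 in cell survival.

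The data were ChIP-seq peak lists from L3.6pl, an established human pancreatic ductal adenocarcinoma (PDAC) cell line. Cells received PBS as vehicle, TNFα for 30 min or 6 h, or TWEAK for 30 min or 6 h, each cytokine at 10 ng/ml by the study's methods, while the labels and methods state no time for vehicle. RELA, RELB and the active chromatin mark H3K27ac were profiled under these 5 treatments, and the AP-1 subunit FOSL1 in vehicle, with 3 replicates of each of the 16 conditions (48 samples). Each condition came as 1 list that its peak names call merged, so no value has a replicate error, no difference between lists was tested, and the depth per sample is unknown. The peak names of the RELA list of 30 min of TNFα also carry a replicate 1 label, and which replicates it holds is not settled. The RELA lists held between 2791 and 11266 regions and the RELB lists between 2414 and 4101. Much of each list lay in tandem repeats, from 26.3% of the RELA list of 30 min of TNFα to 94.7% of the RELB list of 30 min of TWEAK, and shares over all regions are therefore given outside such repeats. In vehicle, H3K27ac lay within 1 kb of a transcription start site of all 5 epithelial marker genes (KRT8, KRT18, KRT19, EPCAM and CDH1) and of 5 of 10 marker genes of immune, endothelial, stromal, acinar and islet cells. Those 5 were CD3E, CD68, PECAM1, COL1A1 and COL3A1, while PTPRC, CDH5, PRSS1, CPA1 and INS had none.

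Sequence at the sites is shown first. Each of the 8 sites that were called for RELB carried an NF-κB or AP-1 match. Of the 1791 RELB sites of the genome outside tandem repeats, 58.3% had an NF-κB match and 33.3% an AP-1 match. The share with either was not counted, so nothing particular to the members is read from 8 of 8. The 10-letter NF-κB consensus and the AP-1 motif TGANTCA were searched on both strands in the 200 bp around each summit. Capitals mark the matches to either motif, each sequence is the plus strand of hg38, and stretches in or next to an untranslated region were shortened. The first 3 sequences are the only member sites that were called in vehicle with both antibodies. The next 3 are the other sites with the NF-κB consensus that RELB also occupied at 6 h of TWEAK, the following 2 are the sites with RELB and AP-1 but no NF-κB match, and the last 2 belong to genes without any RELB.
TNFAIP3 promoter (chr6:137867179-137867213): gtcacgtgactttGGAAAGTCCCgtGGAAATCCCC
CYLD promoter (chr16:50741872-50741931): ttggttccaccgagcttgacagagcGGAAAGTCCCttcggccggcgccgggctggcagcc
TNIP1 canonical start (chr5:151081057-151081086): cccacccctgGGAAAGTCCCcggagactgg
TNFAIP3 intron 2 (chr6:137873534-137873593): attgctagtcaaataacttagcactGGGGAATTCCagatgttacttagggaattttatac
TNIP1, 2.49 kb upstream of the canonical start (chr5:151083483-151083542): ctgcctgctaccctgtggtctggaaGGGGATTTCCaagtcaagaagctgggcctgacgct
TNIP2 intron 2 (chr4:2746275-2746334): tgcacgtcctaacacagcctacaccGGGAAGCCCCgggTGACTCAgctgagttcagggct
TNFAIP3, 55.7 kb upstream (chr6:137811566-137811622): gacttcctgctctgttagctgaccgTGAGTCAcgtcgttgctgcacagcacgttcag
TNFAIP8, 31.5 kb upstream of the canonical start (chr5:119324429-119324485): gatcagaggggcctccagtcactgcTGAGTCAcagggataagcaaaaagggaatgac
TNIP3 canonical start (chr4:121164348-121164407): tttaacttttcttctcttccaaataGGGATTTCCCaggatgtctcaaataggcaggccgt
TNFAIP2, 1.03 kb upstream of the canonical start (chr14:103122413-103122472): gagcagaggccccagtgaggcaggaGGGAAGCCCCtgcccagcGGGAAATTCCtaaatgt

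The word gggactttcc was present at the TNFAIP3 promoter, the CYLD promoter and the TNIP1 canonical start, on the minus strand at each. The summit lay 6 bp from the nearest NF-κB match at TNFAIP3, 8 bp at CYLD and 7 bp at TNIP1. Over the 17 of 29 sites that had a match the median distance to the nearest match was 7 bp and the largest 54 bp. TNIP2 intron 2 paired an NF-κB match 2 bp from the summit with an AP-1 match 13 bp from it, and the site 2.49 kb upstream of TNIP1 also held both, its AP-1 match lying 34 bp from the summit, beyond the stretch shown. AP-1 matches without an NF-κB match were found at 5 sites, and 7 sites had neither motif. These combinations were not counted over all sites of the genome, so nothing particular to the members is read from them. In the RefSeq promoters of GRCh38.p14, which span 300 bp at each start, 5.91% of 35116 promoters held the NF-κB consensus and 7.71% the AP-1 motif. All 7 members were matched there, with 14 promoters, of which 6 held the NF-κB consensus, from TNFAIP3, CYLD, TNIP1 and TNIP3. No match was found in these windows for TNIP2, TNFAIP2 and TNFAIP8.

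All 7 genes had RELA in the window at both times of TNFα, while the vehicle lists already separated them and the TWEAK lists did so in part along the same line. RELA was called in vehicle near 3 genes (TNFAIP3, TNIP1 and CYLD), at 30 min of TWEAK near the same 3, and at 6 h of TWEAK near these and TNIP2. RELB was called near the same 3 genes in vehicle, near TNIP1 alone at 30 min of TNFα, near TNFAIP3, TNIP1, TNIP2 and CYLD at 6 h of TNFα, near none at 30 min of TWEAK, and near all but TNIP3 and TNFAIP2 at 6 h of TWEAK. Of all protein-coding genes, with regions in tandem repeats left out, 6.65% had RELA in the window in vehicle, 61.8% after 30 min of TNFα, 37.3% after 6 h, 10.7% after 30 min of TWEAK and 6.47% after 6 h. For RELB the shares were 3.10% in vehicle, 1.21% after 30 min of TNFα, 4.92% after 6 h, 1.05% after 30 min of TWEAK and 19.5% after 6 h. RELA near a gene at 30 min of TNFα was thus common, and 7 of 7 genes is to be read against 61.8%. Genes that lie close together share regions, so neither genes nor regions are independent replicates.

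**Figure D1:**
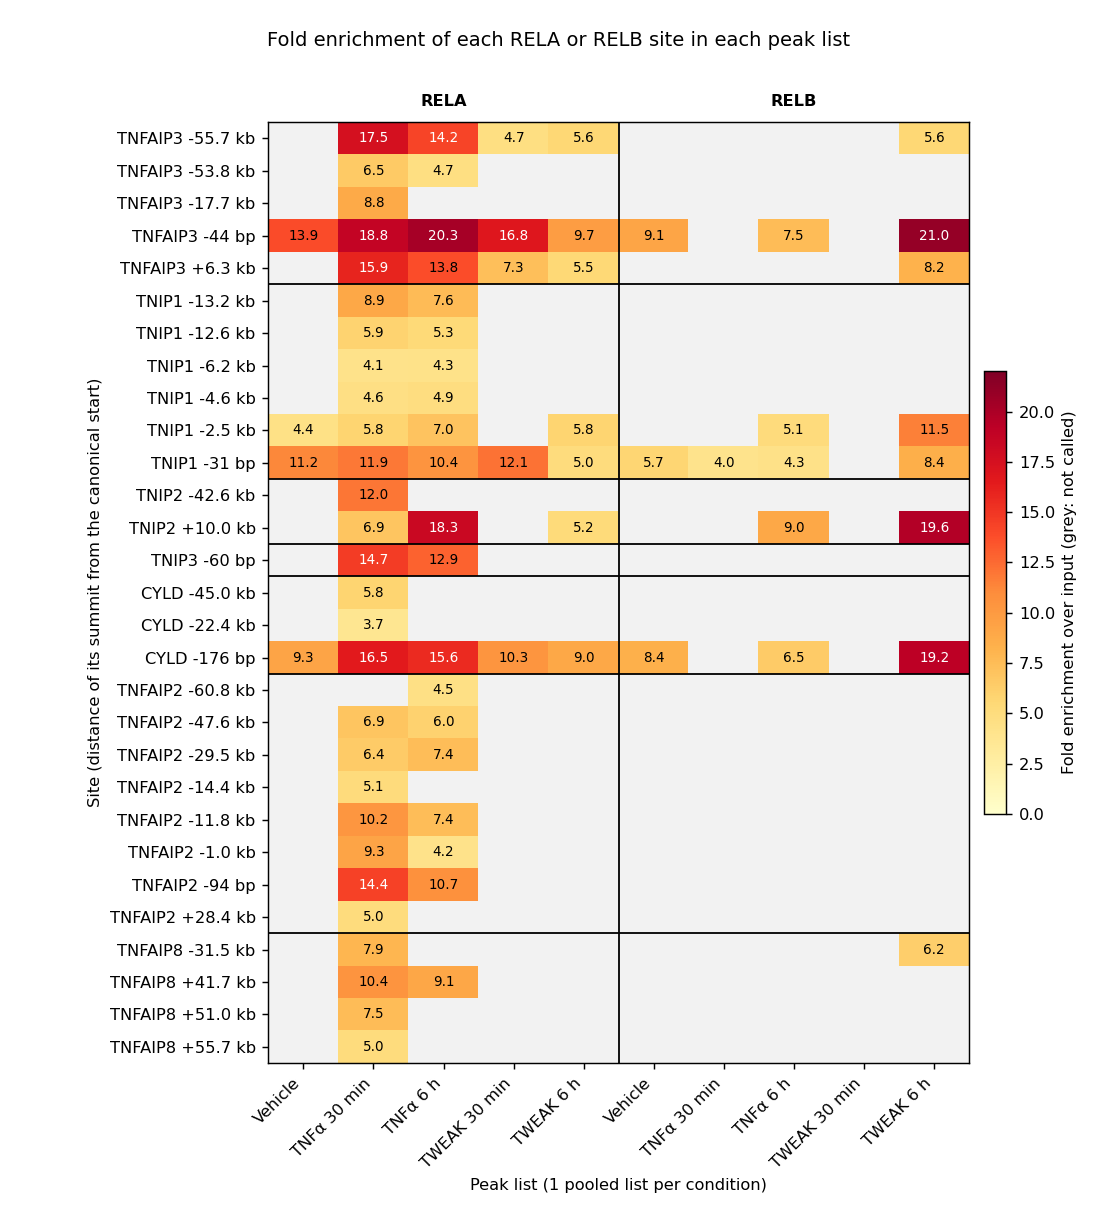
Fold enrichment over input of each of the 29 RELA or RELB sites (rows, with the distance of the summit from the canonical start of the gene, minus for upstream) in each of the 10 pooled peak lists (columns), with colour and number giving the fold enrichment and grey a site that was not called. The sites at TNFAIP3 (−44 bp) and CYLD (−176 bp) are filled in 8 lists and that at TNIP1 (−31 bp) in 9, while every TNFAIP2 and TNIP3 row is filled for RELA after TNFα alone. Of all sites of the genome outside tandem repeats, 77.7% were called for RELA after TNFα alone.

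The A20 gene, TNFAIP3, lies at chr6:137867214-137883314 on the plus strand and had 5 sites. The fold enrichment quoted here and below is MACS2's ratio of ChIP over input at the highest point of a peak, called the summit, or averaged over the peak for the broad peaks of H3K27ac. At the promoter (chr6:137866869-137867466, summit 44 bp upstream of the canonical start) RELA had a fold enrichment of 13.9 in vehicle, 18.8 and 20.3 at 30 min and 6 h of TNFα, and 16.8 and 9.72 at 30 min and 6 h of TWEAK. RELB had 9.12 in vehicle, 7.52 at 6 h of TNFα and 21.0 at 6 h of TWEAK, and was not called at 30 min of either cytokine. RELA was thus lowest at 6 h of TWEAK, where RELB was highest. The summits of the 8 lists lay within 57 bp of each other. FOSL1 had its best peak of the whole window at this promoter, with a fold enrichment of 17.4 (99.0th percentile of its list), and the FOSL1 summit was 239 bp from the summit of the strongest NF-κB list.

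The other TNFAIP3 sites were called only after treatment. The site in intron 2 (chr6:137873307-137873765, 6.27 kb downstream of the canonical start) had RELA at 15.9 and 13.8 at 30 min and 6 h of TNFα, RELA at 7.32 and 5.47 at 30 min and 6 h of TWEAK, and RELB at 8.19 at 6 h of TWEAK. H3K27ac was not called within 500 bp of it in vehicle and was called under all 4 treatments, with fold enrichments from 1.66 to 3.40. The site 55.7 kb upstream (chr6:137811288-137811721) was called in the same 5 lists, with RELA at 17.5, 14.2, 4.66 and 5.55 in that order of treatments and RELB at 5.57. It differed from the intron 2 site in its surroundings, with H3K27ac in vehicle (2.52), a FOSL1 peak (8.13) and an AP-1 match in place of the NF-κB match. A neighbouring site 53.8 kb upstream had RELA at 6.54 and 4.71 at 30 min and 6 h of TNFα and FOSL1 at 8.51. The fifth, 17.7 kb upstream, was called for RELA at 30 min of TNFα alone (8.78), where H3K27ac was also called at that time alone.

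TNIP1, the best-known A20 partner, lies at chr5:151029945-151093577 on the minus strand, and its canonical transcript starts 12.5 kb inside the gene. All of its 6 sites lay between the canonical start and 661 bp upstream of the gene. The site at the canonical start (chr5:151080813-151081234, 31 bp upstream of it) was called in 9 of 10 lists, with RELA at 11.2 in vehicle, 11.9 and 10.4 at 30 min and 6 h of TNFα, and 12.1 and 4.99 at 30 min and 6 h of TWEAK. RELB was at 5.71 in vehicle, 4.04 and 4.33 at 30 min and 6 h of TNFα, and 8.42 at 6 h of TWEAK. RELA at this site was therefore nearly level between vehicle, 30 min of TNFα and 30 min of TWEAK.

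At 2.49 kb upstream of the canonical start (chr5:151083378-151083646), TNIP1 had its strongest RELB site at 6 h of TWEAK, with a fold enrichment of 11.5. RELB was at 5.07 there at 6 h of TNFα, and RELA was at 4.44 in vehicle, 5.76 and 7.04 after 30 min and 6 h of TNFα, and 5.81 at 6 h of TWEAK. H3K27ac was called within 500 bp at 6 h of TNFα alone (1.46). The 4 remaining TNIP1 sites were called for RELA at both times of TNFα and in no other list. Of these, 2 lay 661 and 90 bp before the first start of the gene (chr5:151094136-151094373, RELA at 8.94 and 7.63, and chr5:151093594-151093774, RELA at 5.85 and 5.34). Another (chr5:151087151-151087294) lay 42 bp upstream of another TNIP1 transcript, with RELA at 4.14 and 4.29, and the last, with 4.61 and 4.86, lay inside the gene. With 6 RELA regions at 30 min of TNFα, TNIP1 had more than 97.01% of protein-coding genes. TNFAIP2 had the same number outside tandem repeats, and TNFAIP3, with 5, had more than 94.3% of genes.

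TNIP2, another A20-binding ABIN, lies at chr4:2741648-2756342 on the minus strand and had 2 sites. That in intron 2 (chr4:2746090-2746447, 10.0 kb downstream of the canonical start and 145 bp upstream of a transcript with no annotated coding sequence) was not called in vehicle. RELA was higher at the late time there, with 18.3 after 6 h of TNFα against 6.93 after 30 min, and was at 5.16 at 6 h of TWEAK. RELB was at 8.98 at 6 h of TNFα and 19.6 at 6 h of TWEAK, with no call at 30 min of either cytokine. FOSL1 (5.34) had its summit 10 bp from that of the site, and H3K27ac was called near it in all 5 lists, from 3.59 to 4.11. The other site (chr4:2798873-2799120) had RELA at 11.95 at 30 min of TNFα alone, and it lies in the body of SH3BP2, 5.91 kb from that gene's start.

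TNIP3, the inducible member of the ABIN family, lies at chr4:121131408-121227466 on the minus strand and had a single site, at its canonical start (chr4:121164239-121164583, 60 bp upstream). RELA was at 14.7 and 12.9 at 30 min and 6 h of TNFα, and the site was in no vehicle, TWEAK or RELB list. H3K27ac was nevertheless called within 500 bp in all 5 lists, from 3.07 to 3.88, and FOSL1 was at 4.87 with its summit 197 bp away.

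CYLD lies at chr16:50742050-50801935 on the plus strand. Its promoter site (chr16:50741731-50742312, 176 bp upstream of the canonical start) resembled that of TNFAIP3. RELA was at 9.26 in vehicle, 16.5 and 15.6 at 30 min and 6 h of TNFα, and 10.3 and 9.01 at 30 min and 6 h of TWEAK. RELB was at 8.38 in vehicle, 6.49 at 6 h of TNFα and 19.2 at 6 h of TWEAK. At both promoters RELA was higher after TNFα than in vehicle, RELB was highest at 6 h of TWEAK, and neither had RELB at 30 min of either cytokine. FOSL1 was much lower at CYLD than at TNFAIP3 (3.90, 22.1st percentile of its list). The 2 further CYLD sites were called for RELA at 30 min of TNFα alone. Both lie in the body of NOD2, the intracellular receptor for bacterial peptides, with fold enrichments of 5.82 (chr16:50696916-50697185, 3.53 kb from the NOD2 start) and 3.70 (chr16:50719608-50719752).

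TNFAIP2 lies at chr14:103121476-103137439 on the plus strand and had the most sites, 8, all of them RELA after TNFα and none in vehicle, after TWEAK or for RELB. This class held 77.7% of the 9355 sites of the genome outside tandem repeats and 21 of the 29 member sites. Nothing particular to TNFAIP2, or to the single TNIP3 site, is therefore read from it. The strongest TNFAIP2 site (chr14:103123200-103123584, 94 bp upstream of the canonical start) was at 14.4 and 10.7 at 30 min and 6 h, and it held no match to either motif. That 1.03 kb upstream of the canonical start (chr14:103122289-103122667), with a pair of NF-κB matches, was at 9.26 and 4.16, and that 11.8 kb upstream (chr14:103111494-103111807) was at 10.2 and 7.44. The other 5 had fold enrichments from 4.49 to 7.44, and 2 of them, each called at 1 time only, lay in tandem repeats. The site 29.5 kb upstream, which is 747 bp from the start of EXOC3L4, had H3K27ac at both times of TNFα and in no other list.

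TNFAIP8 lies at chr5:119268692-119399688 on the plus strand and was the only member with no RELA or RELB site within 1 kb of an annotated start. Its site 31.5 kb upstream of the canonical start (chr5:119324401-119324619) had RELA at 7.93 at 30 min of TNFα and RELB at 6.25 at 6 h of TWEAK, next to a FOSL1 peak of 9.41. Its strongest (chr5:119397555-119397983), in the untranslated part of exon 2, had RELA at 10.4 and 9.06 at 30 min and 6 h of TNFα. The remaining 2 lay beyond the end of the gene and were called for RELA at 30 min of TNFα alone, at 7.54 (chr5:119406771-119407032) and 5.03.

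**Figure D2:**
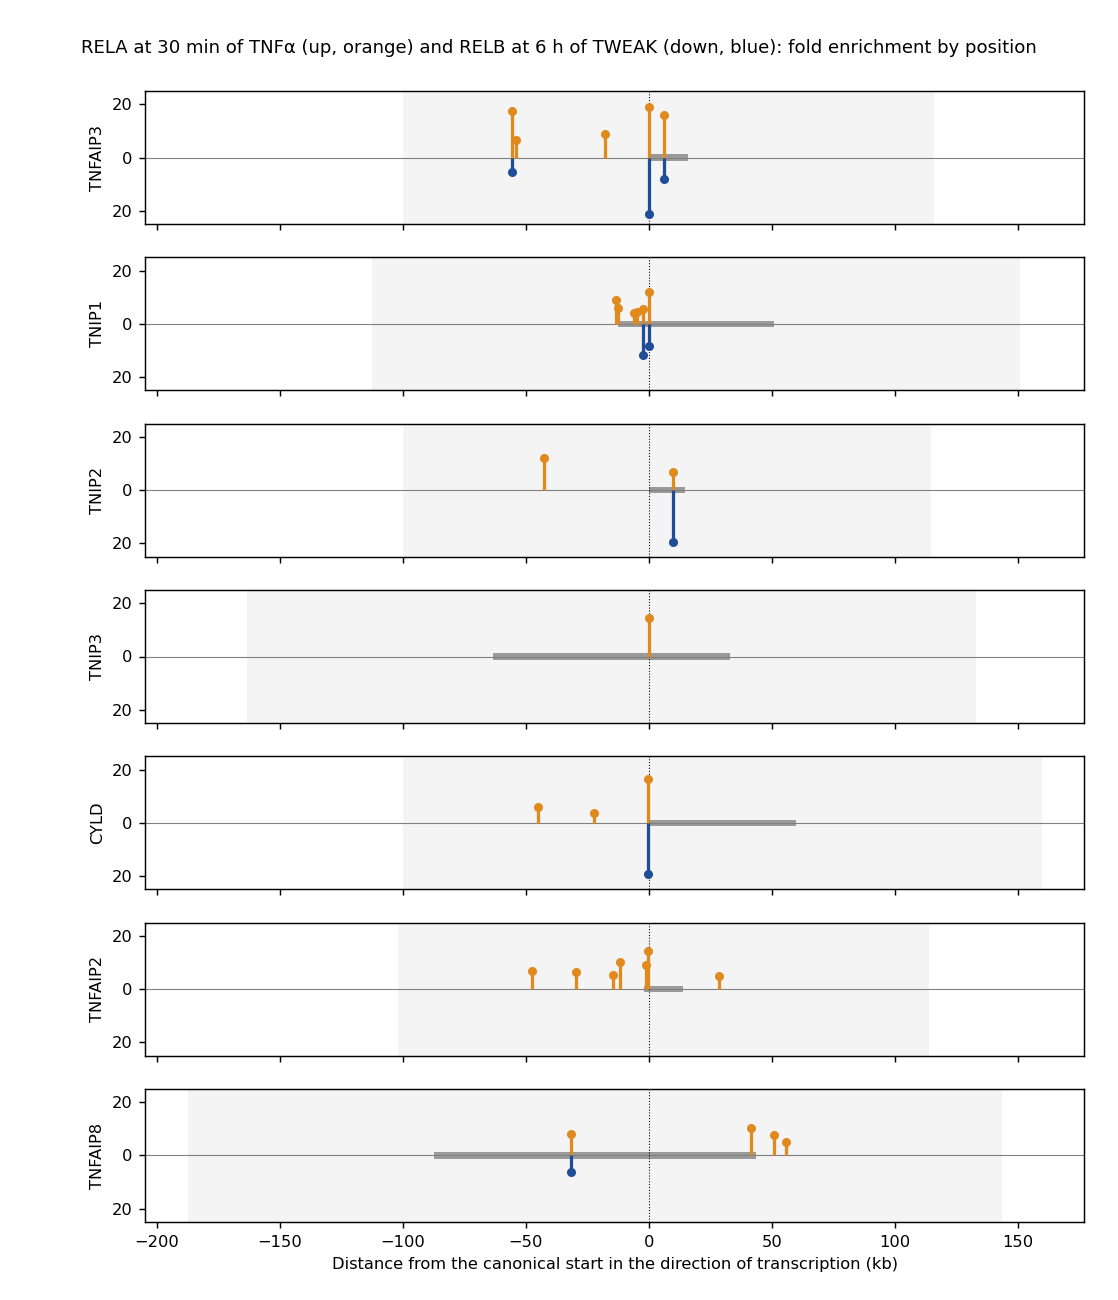
Position of the sites of each gene relative to its canonical start (x axis, kb, in the direction of transcription), with the fold enrichment of RELA at 30 min of TNFα drawn upwards in orange and that of RELB at 6 h of TWEAK downwards in blue. The dark bar is the gene body and the pale area the window. Lines stand at the canonical start of TNFAIP3, TNIP1, TNIP3, CYLD and TNFAIP2, with blue at 3 of these, whereas the TNIP2 and TNFAIP8 starts are empty.

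Binding at gene starts was frequent among the members. RELA at 30 min of TNFα lay within 1 kb of a transcription start site of 6 of 7 members, against 10.9% of protein-coding genes. RELB at 6 h of TWEAK did so for TNFAIP3, TNIP1, TNIP2 and CYLD, against 1.69%, and RELA in vehicle for TNFAIP3, TNIP1 and CYLD, against 0.494%. The members have between 6 and 17 annotated starts and the median gene has 5, so the canonical start alone was also used. RELA at 30 min of TNFα then lay within 1 kb for 5 of 7 members (8.03% of genes), RELB at 6 h of TWEAK for 3 (1.12%) and RELA in vehicle for 3 (0.349%). These counts are descriptions, since the members were chosen with the data known.

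RELA regions of the members were mostly shared between the times of TNFα. Of the 28 regions at 30 min of TNFα, 19 (67.9%, exact 95% interval 47.6 to 84.1) were called again at 6 h, against 35.3% of the 8308 regions of that list outside tandem repeats, where 27 of the 28 also lay. The interval, like all others here, covers counting error over regions only. Among the 19 sites called at both times, 13 had the higher fold enrichment at 30 min and 6 at 6 h, while over the genome 76.1% of 2927 such sites were higher at 30 min. The TNIP2 intron had the widest gap in favour of 6 h. The members' regions were also stronger, with a median fold enrichment of 7.73 against 6.21, and what part this had in the sharing between lists was not tested. Regions absent from vehicle made up 24 of 28 (85.7%, 67.3 to 96.0), against 95.7% outside tandem repeats and 80.7% of the whole list.

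Fewer of the regions were shared with the TWEAK lists. RELA was also called at 30 min of TWEAK at 5 of the 28 regions (17.9%, 6.06 to 36.9), against 7.76% of the list, and at 6 h at 7 (25%, 10.7 to 44.9), against 4.31%. RELB at 6 h of TWEAK overlapped 8 (28.6%, 13.2 to 48.7), against 15.7% outside tandem repeats and 27.3% of the whole list, and RELB in vehicle overlapped 3 (10.7%, 2.27 to 28.2), against 2.47%. Seen from RELB, each of the 8 regions of 6 h of TWEAK was also a RELA region at 30 min of TNFα, against 80.0% of 1636. Of these 8 regions, 5 were not called in vehicle, against 87.8%, and 6 overlapped FOSL1, against 63.7%.

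For the chromatin features and motifs, the intervals of the members held the value of the list. FOSL1 overlapped 12 of 28 (42.9%, 24.5 to 62.8), against 48.8%. H3K27ac lay within 500 bp of the summit in vehicle for 17 (60.7%, 40.6 to 78.5), against 63.2%, and at 30 min of TNFα for 21 (75%, 55.1 to 89.3), against 74.3%. Of the 11 regions without the mark in vehicle, 4 had it at 30 min of TNFα, against 32.8% of such regions. These 4 were at TNFAIP3 intron 2, 17.7 kb upstream of TNFAIP3, 44.97 kb upstream of CYLD in NOD2, and 29.5 kb upstream of TNFAIP2. The NF-κB consensus was found at 16 of 28 (57.1%, 37.2 to 75.5), against 46.2%, and the AP-1 motif at 7 (25%, 10.7 to 44.9), against 18.9%.

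**Figure D3:**
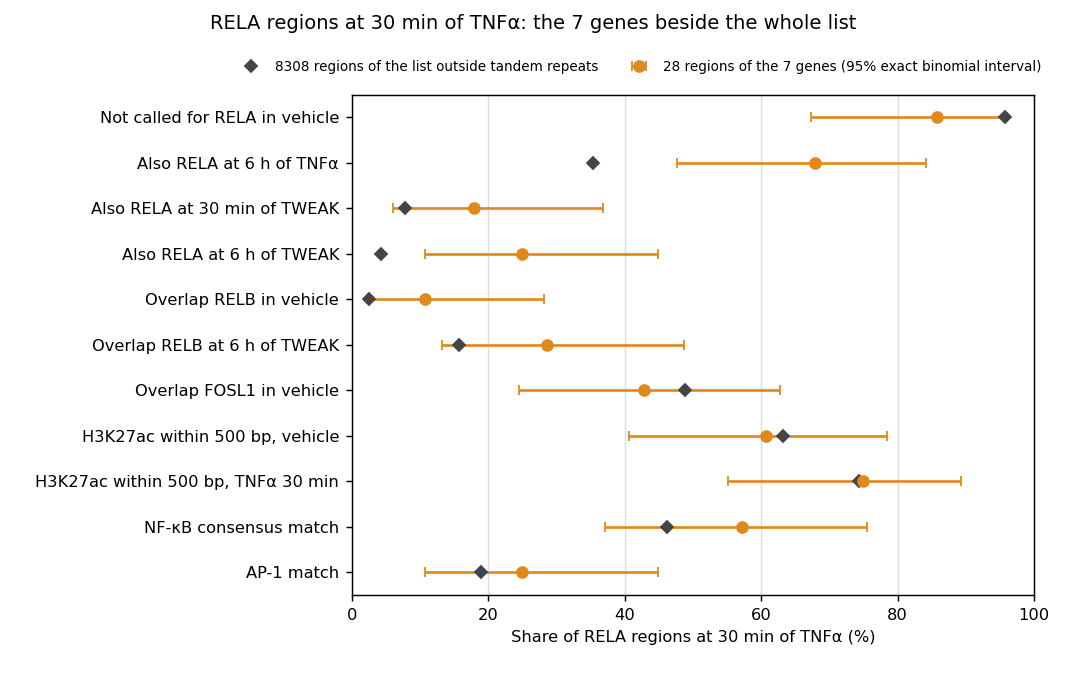
Share of RELA regions at 30 min of TNFα with each feature (x axis, percent), for the 28 regions of the 7 genes (orange, with exact 95% binomial intervals) and for the 8308 regions of the list outside tandem repeats (dark diamonds). The diamonds for RELA at 6 h of TNFα and at 6 h of TWEAK lie left of the orange intervals, and those for FOSL1, H3K27ac and both motifs lie inside them.

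Motifs and FOSL1 at the members' sites were set beside all sites of the genome outside tandem repeats, 1791 with RELB and 7564 with RELA alone. Of the 8 member sites called for RELB, 6 held the NF-κB consensus, 4 the AP-1 motif and 6 a FOSL1 peak, against 58.3%, 33.3% and 62.6% of all RELB sites. Of the 21 member sites called for RELA alone, 2 of them in tandem repeats, 11 held the NF-κB consensus, 3 the AP-1 motif and 6 a FOSL1 peak, against 40.9%, 17.5% and 45.1%. The median RELA fold enrichment at 30 min of TNFα was 13.9 at the members' RELB sites and 6.72 at their other sites, against 10.0 and 5.93 over the genome. Some of the members' motif and FOSL1 counts lay above the list-wide shares and others below. No difference was tested, and nothing particular to the members is read from 8 and 21 sites. The windows held 55 FOSL1 regions in all, and 12 of these overlapped a RELA or RELB site, against 14.9% of the 58864 FOSL1 regions.

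H3K27ac covered more of each window at 6 h of TNFα than in vehicle. The covered length was greater for 7 of 7 genes at that time, against 48.0% of the 18714 protein-coding genes with H3K27ac in all 5 lists. The shares of genes that follow are over the same 18714. The members went from 67.4 kb in all to 81.4 kb (1.21 times), while the whole list covered 1.00 times the vehicle length. TNFAIP3 went from 11.8 to 17.1 kb (17 to 24 peaks) and TNIP1 from 8.69 to 12.3 kb (9 to 14 peaks), whereas TNIP3 was nearly level at 4.72 and 4.84 kb. The mean fold enrichment of the peaks was lower at 6 h of TNFα, at 2.85 against 3.20 in vehicle. Over the whole lists it was 3.19 at 6 h of TNFα and 3.26 in vehicle, so the added length near the members came with weaker peaks. At 30 min of TNFα, 2 of 7 genes had more covered length than in vehicle (15.8% of genes), and CYLD was the clearest, with 2.51 kb in vehicle and 4.02 kb at 30 min. The whole list was shorter at that time, at 0.813 times the vehicle length, with the members at 0.965 times. After TWEAK no member had more, against 17.4% of genes at 30 min and 9.03% at 6 h. The whole lists were shorter there too, at 0.845 and 0.837 times the vehicle length at 30 min and 6 h, with the members at 0.794 and 0.911 times, so nothing particular to the members is read from their lower TWEAK values. Around the canonical start every member had a peak in all 5 lists. From vehicle to 30 min of TNFα its fold enrichment rose at CYLD (4.42 to 6.22), TNFAIP2 (2.13 to 3.24) and TNIP3 (3.48 to 3.85). It fell at TNFAIP3 (3.93 to 3.76), TNIP1 (3.63 to 3.25) and TNFAIP8 (3.57 to 3.17), and also at TNIP2. At 6 h of TNFα it was higher than in vehicle only at CYLD and TNFAIP2.

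**Figure D4:**
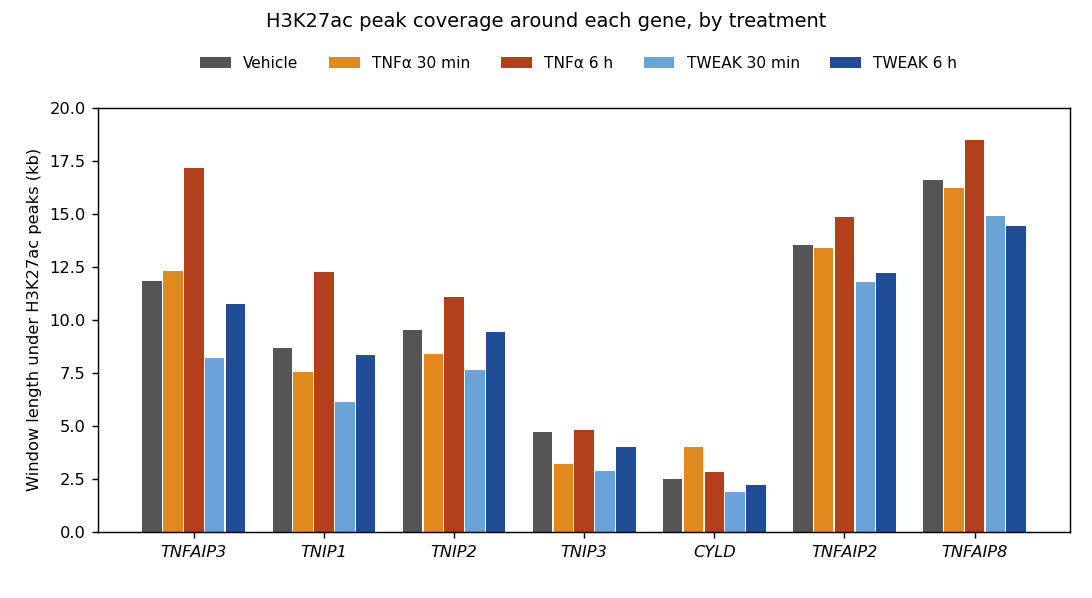
Length of each gene's window covered by H3K27ac peaks (y axis, kb) in vehicle and after each treatment, 1 pooled list per bar with no error. The bar for 6 h of TNFα exceeds the vehicle bar for all 7 genes, most at TNFAIP3 (17.1 against 11.8 kb) and TNIP1 (12.3 against 8.69 kb), and both TWEAK bars are lower than the vehicle bar for each gene, as the whole lists were (0.845 and 0.837 times vehicle).

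The wider pathway around A20 was covered by a list of 23 genes, comprising other A20 cofactors, subunits of the linear ubiquitin ligase, further deubiquitinases and ubiquitin ligases, signaling proteins that carry the ubiquitin, and TNFAIP8 relatives. RELA at 30 min of TNFα was in the window of 17 of the 23, against the 61.8% of all genes, and RELB at 6 h of TWEAK in the window of 6, against 19.5%. Within 1 kb of a start, RELA at 30 min of TNFα was found for 5 of the 23, against 10.9% of all genes. These were BIRC3, RNF31, SPATA2, TNFAIP8L1 and TRAF2. RELB at 6 h of TWEAK was found there for 2, against 1.69%, the ubiquitin ligase genes BIRC3 and TRAF2, which thus had both. Best fold enrichments were 13.5 for RELA and 16.5 for RELB at BIRC3, and 16.4 and 22.8 at TRAF2. BIRC2, the neighbour of BIRC3, shares its regions. Among A20 cofactors, TAX1BP1 had 8.53 and 9.69 and ITCH 10.5 and 5.53 for RELA and RELB, while RNF11 had neither. The TNFAIP8 relative TNFAIP8L1 had 17.95 and 5.15. SPATA2, which links CYLD to the linear ubiquitin ligase, had RELA at 22.8 and no RELB, and RIPK1, a substrate of A20, had RELA at 17.8 and no RELB. OTULIN, RBCK1, TRAF6, USP4 and TNFAIP8L3 had no region in either list.

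When the best fold enrichment in each of the 10 lists was compared on the log2(value + 1) scale, CYLD was the member most like TNFAIP3, at a Euclidean distance of 0.972, and TNIP1 the next, at 2.93. Of 20000 genes whose windows do not touch those of the members, 8 were nearer to TNFAIP3 than CYLD, and 179 were nearer than TNIP1. The nearest were TMEM184B, CSNK1E and TPTEP2-CSNK1E, at 0.532 each, which are neighbours on chromosome 22 with the same regions in their windows. The other members lay at 6.69 (TNIP2), 8.32 (TNFAIP8), 9.23 (TNIP3) and 9.25 (TNFAIP2), and the median gene at 10.3.

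No RELA region of 30 min of TNFα lay near the border of a window. The RELA region at 30 min of TNFα farthest from a member's gene body was 55.5 kb away, at TNFAIP3 (fold enrichment 17.5), and the nearest outside was 116 kb from TNFAIP2 (5.93).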

How the data were processed

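The members and gene lists were chosen with earlier results of these data known. Reads were mapped by the authors to hg38 with Bowtie2 2.5.0, and SAMtools 1.18 and deepTools 3.3.2 are also named in the submitters' processing notes. Peaks were called by the authors with MACS2 against input, with broad calling for H3K27ac, narrow calling for the transcription factors and a stated cutoff of 0.05, on what the peak names call merged data. The MACS2 version is not given in the sources used here. Peak names of the RELA list of 30 min of TNFα carry a replicate 1 label, so it is not settled which replicates it holds. The deposited values used were the fold enrichment, which is a ratio of ChIP over input, the −log10 q-value and the summit offset, an offset in bp. The −log10 p columns of the 16 lists were left out.

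Scaffold peaks were dropped, so that chromosomes 1 to 22, X and Y remained, and no peak lay past a chromosome end of the hg38 reference. An overlap needed 1 bp, and own code and bedtools 2.31.1 both gave 3072 RELA regions of 30 min of TNFα overlapping RELB at 6 h of TWEAK. Regions of different lists that overlapped were merged into sites, whose summit is that of the list with the highest fold enrichment. A region counted as a tandem repeat when at least 0.4 of the 1000 bp around its summit matched itself at a shift of 1 to 400 bp. Gene positions, transcription start sites and the Ensembl canonical transcript came from GENCODE 44. Likeness of pattern was the Euclidean distance of the log2 best fold enrichment plus 1 over the 10 RELA and RELB lists. Positions are given for the 3 sites of each member with the highest fold enrichment outside tandem repeats, for every site within 1 kb of a start, and for the strongest RELB site at 6 h of TWEAK. Shares carry exact (Clopper-Pearson) 95% intervals, and no p-value was computed because each condition is 1 list. Python 3.11.15, numpy 2.4.6, pandas 2.3.3, scipy 1.17.1 and pysam 0.24.0 were used, and the functions were tested on simulated data. Alternatives changed the window, the q-value and fold enrichment minimum, the overlap rule, the H3K27ac and motif windows, the start sites and the repeats.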

Additional observations from a re-analysis of the deposited data

How the results depend on the processing

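Of 72 alternatives for the main counts and shares, 68 stayed within 1.5 times the count or within the interval of the share. Those intervals are wide, so staying inside them does not mean that a share was stable. The AP-1 share went from 25% to 10.7% with a motif window of 100 bp. The RELB overlap went from 28.6% to 41.2% with 10 kb on either side, and the FOSL1 overlap from 42.9% to 28.6% with summits within 100 bp. With 10 kb in place of 100 kb on either side, 17 RELA regions at 30 min of TNFα remained of 28. A fold enrichment of at least 5 in every list left 4% of regions with H3K27ac in vehicle and 8% at 30 min of TNFα, which follows from the rule itself, since few of the broad H3K27ac peaks near the members reach 5. With 1 mismatch allowed, 96.4% of regions matched the NF-κB consensus. Members with RELA at 30 min of TNFα within 1 kb of a start numbered 6 with any start, 4 with the start of the gene as annotated and 5 with the canonical start, the last chosen after seeing the data. Of 24 alternatives for the best fold enrichment of a member, 23 left it the same, and TNIP2 fell to 6.93 for RELA within 10 kb. The RELA list of 6 h of TNFα in place of 30 min, also chosen after seeing the data, kept 20 regions, with 35% overlapping RELB at 6 h of TWEAK. No paired analysis was possible because each condition is 1 merged list, and for the same reason no replicate could be left out. Depth is unknown, so a site that was not called in a list may lie below what that list could detect.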

Other observations

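The NF-κB words shared between members were counted over all RELA regions of 30 min of TNFα outside tandem repeats, as a description chosen after seeing the sites. The word gggactttcc of the TNFAIP3 promoter, the CYLD promoter and the TNIP1 canonical start was in 3.76% of the 8308 regions. It was in 14 of the 136 regions that were also called in both vehicle lists (10.3%) and in 298 of the 8172 others (3.65%). The 3 member sites that gave the word are themselves among the 14, so part of this difference follows from how the word was chosen. The word ggggatttcc, the second of the TNFAIP3 promoter and that of the site 2.49 kb upstream of TNIP1, was in 14 of the 136 (10.3%) and in 3.68% of the others. The TNFAIP3 promoter is among these 14 as well. The word ggggaattcc of TNFAIP3 intron 2 and a TNIP1 site, neither of which was called in vehicle, was in 16 of the 136 (11.8%) and in 4.47% of the others. The word gggaaattcc, found at 4 member sites that were called for RELA after TNFα alone, went the other way, with 2 of 136 (1.47%) and 6.56%. So did gggaatttcc, found at 3 member sites, with 3 of 136 (2.21%) and 6.06%, and ggggcttccc, found at TNIP2 intron 2 and a TNFAIP2 site, with 1 of 136 (0.735%) and 1.06%. Of the 6 words found at more than 1 member site, 3 were thus more frequent and 3 less frequent in the regions called in both vehicle lists. The words are not independent, so nothing is read from this tally. At all 3 member sites of gggaatttcc, gggaaattcc overlaps it on the opposite strand, and ggggcttccc rests on 1 of the 136 regions. Any match to the consensus was about as frequent in the 136 regions as in the others, at 50.7% and 46.1%. No test was made of these shares.

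FOSL1 regions numbered 12 near TNFAIP8, 10 each near TNIP1 and TNFAIP2, 9 near TNFAIP3, 5 each near TNIP3 and CYLD, and 4 near TNIP2. The median was 9 for the members and 7 for all protein-coding genes, whose quartiles were 4 and 11. The strongest in the TNFAIP8 window, at 11.4, lay 5.83 kb downstream of the gene start, and the strongest in the TNFAIP2 window, at 12.4, lay 7.30 kb downstream of it.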
